A study of Mus musculus with 10 samples.

Results

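The genes described here were the 10 members of the regulator of G protein signalling (RGS) family that a name list picked out of 55809 gene rows: Rgs1, Rgs2, Rgs3, Rgs10, Rgs11, Rgs12, Rgs14, Rgs16, Rgs18 and Rgs19. They were chosen because Rgs2 was lower in R26-TIR1(F74G) regulatory T (Treg) cells in an earlier analysis of these same libraries, and the question was whether its relatives followed. The values of the genotype comparison for these genes are therefore a description: the number past the threshold is printed beside the share of all genes past it, and neither that number nor an interval is used as a test. RNA from Treg cells of the spleen and lymph nodes was sequenced in bulk from Foxp3-AID ROSA26-WT mice (R26-WT, n = 4) and Foxp3-AID ROSA26-TIR1(F74G) mice (R26-TIR1(F74G), n = 6). In both groups Foxp3 is made from its own locus as a fusion with a degron (AID) that auxin recruits, alongside a ZsGreen reporter and Cre recombinase. The R26-TIR1(F74G) group also carries the plant E3 ligase TIR1(F74G) with an mCherry reporter in ROSA26, behind a STOP cassette that Cre removes in cells that use the Foxp3 allele. All mice had received 5-ph-IAA, the auxin analog that brings TIR1(F74G) to the degron, for 14 days, so the controls share the drug and the fusion protein but lack the ligase. The labels give neither age nor sex, and the counts, 0 to 7 for Xist and 3926 to 10683 for the Y-linked Ddx3y, are those of males in all 10 libraries. The methods of the study describe sorting of Treg cells by ZsGreen, with mCherry added for mice with TIR1, without tying that gate to these libraries, so gate and genotype cannot be told apart where it was used.

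RGS proteins speed up the hydrolysis of GTP by G protein alpha subunits and so shorten the signal of G protein-coupled receptors, among them the chemokine and sphingosine-1-phosphate receptors that guide lymphocytes. The family is divided by sequence into subfamilies. The R4 subfamily holds small proteins made of little more than the RGS domain (Rgs1, Rgs2, Rgs16, Rgs18) and the larger Rgs3, the R12 subfamily holds Rgs10, Rgs12 and Rgs14, the R7 subfamily holds Rgs11 and the RZ subfamily holds Rgs19. Rgs2 is unusual in its preference for Gq over Gi alpha subunits and is an early response gene in T cells and many other cells.

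Libraries held 24158699 to 54795718 counted read pairs, on average 51171204 ± 4394248 for the R26-WT group and 40328847 ± 8971751 for the other (SD, exact permutation test, two-sided p = 0.0476). The libraries also differed in how they weighted long against short genes, a trait that followed no group: the median log2 deviation of the longest quartile of genes minus that of the shortest ran from -0.53 to 0.41 in R26-WT and from -0.32 to 0.58 in R26-TIR1(F74G). It was high in R26-WT replicate 2 and R26-TIR1(F74G) replicate 7 and low in R26-WT replicates 3 and 4, and the first principal component, with 60.5% of the variance of the 500 most variable genes, placed the same libraries at its ends. Genes of the Treg list had a summed level of 7393 to 8774 TPM (a level per length, scaled to the same total in each library) in R26-WT and 7490 to 8143 in R26-TIR1(F74G). Most of this sum came from the general T cell gene Trac (mean 5490 and 5387 TPM). Of the 8 genes 6 had a negative log2 fold change, among them Il2ra (-0.29), Ctla4 (-0.31), Ikzf2 (-0.16) and Tnfrsf18 (-0.42), and 2 a positive one. By adjusted p, 0 of 8 were called by DESeq2 and 0 by edgeR. At an unadjusted p below 0.05 there were 2 by DESeq2 and 2 by edgeR, where all tested genes gave 6.86% and 6.21%. The Foxp3 transcript had a log2 fold change of 0.07 (SE 0.25), and the degron acts on the protein, which was not measured here. Its highest library in either group was R26-TIR1(F74G) replicate 7. Of the Foxp3 exon bases, 31.5% are shared with other genes, and read pairs over shared bases were not counted.

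Rgs2 lies on chromosome 1 on the minus strand (GRCm39, 143875076 to 143879899). The 250 bases before its RefSeq start site, chr1:143879888-143880137, are shown because Rgs2 is the member that the comparison turns on, beside those of its R4 relative Rgs16, chr1:153615849-153616098 on the plus strand. Both are written in the direction of transcription, and capitals mark the letters TGACG (the core of a cyclic AMP response element, CRE) and CCAAT on either strand.
Rgs2: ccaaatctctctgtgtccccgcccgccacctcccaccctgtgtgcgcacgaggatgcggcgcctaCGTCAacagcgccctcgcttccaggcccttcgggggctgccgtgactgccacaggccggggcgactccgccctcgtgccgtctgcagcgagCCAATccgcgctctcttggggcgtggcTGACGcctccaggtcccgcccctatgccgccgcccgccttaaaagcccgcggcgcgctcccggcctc
Rgs16: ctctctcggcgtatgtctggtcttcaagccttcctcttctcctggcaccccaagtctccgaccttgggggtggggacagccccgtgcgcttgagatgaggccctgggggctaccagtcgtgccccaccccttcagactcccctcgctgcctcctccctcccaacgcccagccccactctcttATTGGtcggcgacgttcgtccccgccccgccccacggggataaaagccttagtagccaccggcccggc
The Rgs2 stretch held TGACG at -67 to -63 and, on the other strand, at -185 to -181 from the start site, and CCAAT at -94 to -90. The Rgs16 stretch held CCAAT on the other strand at -68 to -64 and no TGACG, while 1 of the Rgs12 promoters held TGACG at -82 to -78. Of 32851 mouse promoters of the same length, 17.8% held TGACG and 33.8% held CCAAT. The full CRE TGACGTCA, which contains TGACG, was in 1.55% of all promoters and in none of the 10 promoters that the table gave for 6 members (Rgs2, Rgs3, Rgs10, Rgs12, Rgs16 and Rgs19). The AP-1 letters TGACTCA were in 4.46% of all promoters and in 1 member, Rgs12, and the forkhead letters TGTTTAC were in 3.17% and in no member. These are matches of letters and say nothing of binding.

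Rgs2 was lower in every R26-TIR1(F74G) library than in any R26-WT library. The 4 R26-WT libraries had 2937, 2192, 2448 and 2288 normalized read pairs (counts divided by DESeq2 size factors), and the 6 R26-TIR1(F74G) libraries had 1587, 1586, 1249, 1592, 1613 and 1700. The groups did not overlap, R26-WT replicate 1 was the highest library and R26-TIR1(F74G) replicate 7 the lowest, and the other 5 R26-TIR1(F74G) libraries lay within a narrow band. Of the 16363 genes that passed the filter (mean count 10 or more), 0.801% had all R26-TIR1(F74G) libraries below all R26-WT libraries. The means were 2466 ± 331 (SD, n = 4) and 1554 ± 156 (SD, n = 6), so that R26-TIR1(F74G) cells held 63.0% of the R26-WT level (log2 fold change -0.67, SE 0.13, 95% interval -0.92 to -0.42). With every library left out in turn, and under the other settings tried, the log2 fold change stayed between -0.72 and -0.57. With the length and GC trend of each library removed it was -0.70 (SE 0.12). In bulk RNA, fewer cells with the transcript and less transcript per cell cannot be told apart.

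**Figure D1:**
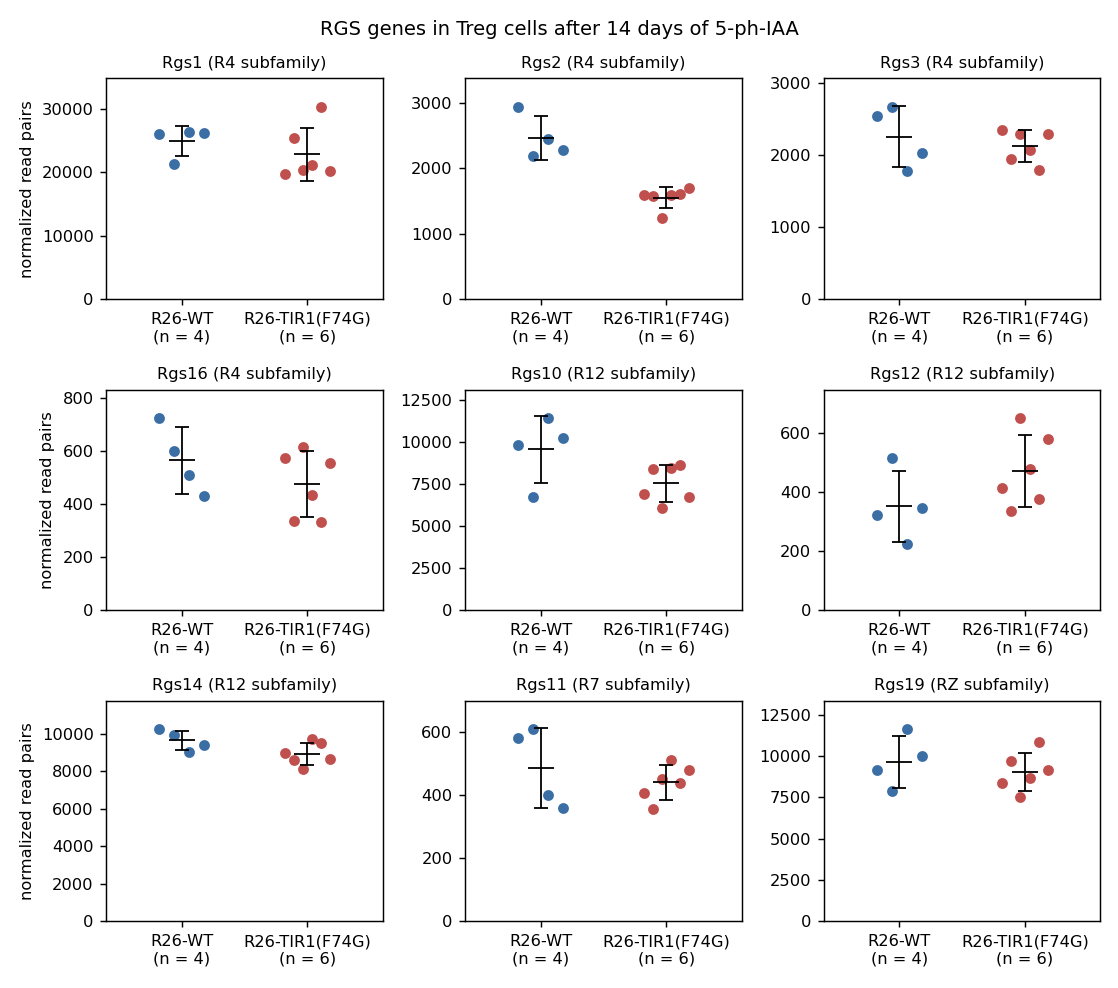
Normalized read pairs of the 9 RGS genes that passed the count filter, 1 panel per gene, in R26-WT (n = 4, blue) and R26-TIR1(F74G) (n = 6, red). Each point is a library and bars are the mean ± SD. The groups are apart for Rgs2, with 2192 as the lowest R26-WT value and 1700 as the highest R26-TIR1(F74G) value, and overlap for the other 8.

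Among the 8 relatives that passed the filter, none separated the groups. DESeq2 called 1 of the 9 tested members (Rgs2) at an adjusted p under 0.05, against 1.74% of all tested genes in either direction and 0.336% in the lower direction, and edgeR called the same gene against 0.373%. Of the relatives, 0 were called by either tool, and 1 (Rgs10) had an unadjusted p below 0.05 by DESeq2 and also by edgeR, where 6.86% and 6.21% of all tested genes did. Since the set was chosen from this contrast, nothing is read from these counts. The log2 fold change was negative in 7 relatives and positive in 1 (Rgs12), with a median of -0.12, beside a median of 0.00063 over all tested genes, 8161 of which were negative. The 95% interval held 0 in 7 of the 8 relatives. It held the Rgs2 value of -0.67 in 2 of them, Rgs10 and Rgs16, and not in the other 6, and the Rgs16 interval held both.

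**Figure D2:**
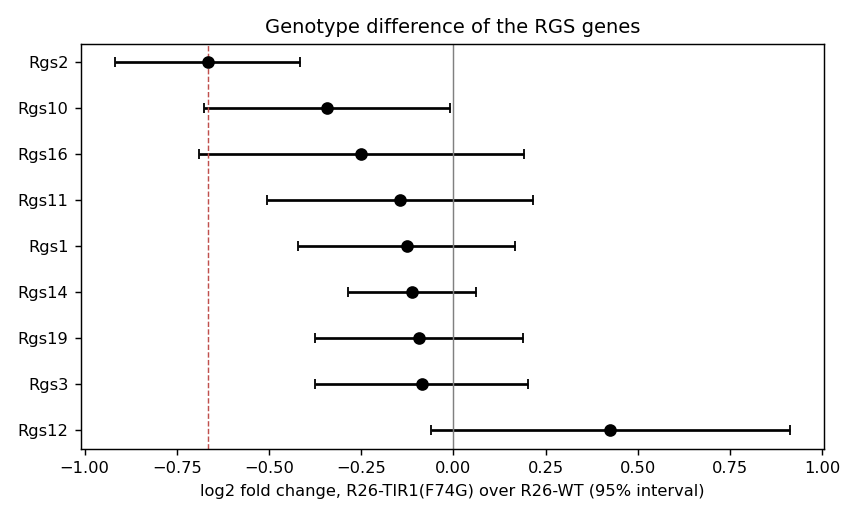
Log2 fold change of each tested RGS gene, R26-TIR1(F74G) over R26-WT, with its 95% interval from the DESeq2 fit (grey line at 0, red dashed line at the Rgs2 value). Rgs2 lies lowest at -0.67, Rgs10 follows at -0.34 with an interval that ends just below 0, and Rgs12 is the only gene above 0, at 0.43.

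The R4 relatives of Rgs2 showed no like separation. Rgs1, which turns down chemokine receptor signals through Gi in activated lymphocytes, lies 245 kb from Rgs2 on the same strand (chromosome 1, 144118034 to 144124980). It had 25967, 21356, 26299 and 26124 normalized read pairs in R26-WT and 19730, 25371, 20408, 21089, 30217 and 20198 in R26-TIR1(F74G). The highest library of all (replicate 9) and the lowest (replicate 5) were both R26-TIR1(F74G), and 4 of these 6 libraries lay below the lowest R26-WT value. The log2 fold change was -0.13 (SE 0.15, 95% interval -0.42 to 0.17), and it was -0.22 (SE 0.12) without replicate 9 and -0.19 (SE 0.16) without R26-WT replicate 2. With the trend removed it was -0.20 (SE 0.24). Rgs16, which likewise limits chemokine receptor signals and is induced by T cell activation, lies further along the chromosome (153616095 to 153621214, plus strand). Its values were 723, 598, 508 and 429 in R26-WT and 574, 335, 617, 435, 333 and 554 in R26-TIR1(F74G). These ranges overlapped widely, and the log2 fold change was -0.25 (SE 0.22), with a 95% interval of -0.69 to 0.19. Single libraries moved it, to -0.11 when R26-WT replicate 1 was left out and to -0.17 or -0.16 when R26-TIR1(F74G) replicate 6 or 9 was. In the other direction it reached -0.36 with R26-WT replicate 4 left out and -0.34 with R26-TIR1(F74G) replicate 7 left out. Of its exon length, 10.1% is shared with the gene model Gm28513, and read pairs over shared bases were not counted for either.

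Rgs3, a longer R4 protein whose gene spans chromosome 4 from 62478084 to 62622238, had 2552, 2669, 1786 and 2034 normalized read pairs in R26-WT and 1800 to 2356 in R26-TIR1(F74G) with a median of 2184. All 6 R26-TIR1(F74G) libraries fell inside the R26-WT range (log2 fold change -0.09, SE 0.15, 95% interval -0.37 to 0.20). Its value was 0.0038 without R26-WT replicate 2, -0.02 without replicate 1, -0.13 without replicate 4 and -0.18 without replicate 3, and -0.04 without R26-TIR1(F74G) replicate 9. With the trend removed it was -0.17 (SE 0.11), and 5 of the 6 R26-TIR1(F74G) libraries then lay below the lowest R26-WT library. Rgs18, known from platelets and megakaryocytes (chromosome 1, 144628421 to 144651173), was close to undetected. Its raw counts were 6, 5, 6 and 0 in R26-WT and 0, 0, 6, 0, 0 and 6 in R26-TIR1(F74G), so it was below the filter and was not tested. Of the 8 platelet and megakaryocyte genes examined, Pf4 and Ppbp were at 0 in all 10 libraries, while Itga2b had 18 to 51 counts and Gp1ba had 0 to 30. Gp1bb was also at 0, but 92.9% of its exon bases are shared with other genes, so its 0 says little.

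Of the R12 genes, Rgs10 had the next lowest value after Rgs2. Rgs10 encodes a small protein that acts on Gi alpha subunits and is abundant in leukocytes (chromosome 7, 127975345 to 128020482). R26-WT libraries had 9823, 6738, 11389 and 10220 normalized read pairs, and R26-TIR1(F74G) libraries had 6875, 8383, 6093, 8471, 8640 and 6699. The R26-WT libraries other than replicate 2 lay above all R26-TIR1(F74G) libraries, and replicate 2 lay among them. The log2 fold change was -0.34 (SE 0.17, 95% interval -0.68 to -0.01), the only relative whose interval left out 0. Without R26-WT replicate 2 it was -0.48 (SE 0.15) and without R26-WT replicate 3 it was -0.25 (SE 0.18). R26-WT replicate 2 and R26-TIR1(F74G) replicate 7, the lowest Rgs10 libraries of their groups, were also the ones that weighted long genes most, and with the trend removed the value was -0.30 (SE 0.12).

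Rgs12, a large scaffold with further domains that bind receptors and inactive Gi, was the one member with a positive value (chromosome 5, 35106789 to 35196988). It had 323, 516, 225 and 345 normalized read pairs in R26-WT and 413, 337, 650, 478, 379 and 580 in R26-TIR1(F74G). R26-WT replicate 2 was above 4 of the R26-TIR1(F74G) libraries, and 2 libraries of that group exceeded it. The log2 fold change was 0.43 (SE 0.25, 95% interval -0.06 to 0.91), 0.67 (SE 0.24) without R26-WT replicate 2, 0.26 (SE 0.25) without R26-WT replicate 3 and 0.34 (SE 0.18) with the trend removed. Rgs12 was the most variable tested member within groups, with a pooled SD of 0.42 on the log2 scale, and it was highest in the libraries of each group that weighted long genes most. Rgs14, which like Rgs12 carries a GoLoco motif that binds inactive Gi (chromosome 13, 55517545 to 55532500), was the least variable, with an SD of 0.09. Its values were 10226, 9912, 9039 and 9384 in R26-WT and 8963, 8598, 8095, 9707, 9516 and 8648 in R26-TIR1(F74G). They overlapped, with a log2 fold change of -0.11 (SE 0.09, 95% interval -0.29 to 0.06). With the trend removed it was -0.17 (SE 0.10), with 5 of the 6 R26-TIR1(F74G) libraries below the lowest R26-WT library.

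Rgs11, the R7 member, is known from retina and brain and works in a complex with Gnb5 (chromosome 17, 26421925 to 26430298). It had 582, 608, 400 and 359 normalized read pairs in R26-WT and 357 to 511 in R26-TIR1(F74G) with a median of 444, a log2 fold change of -0.15 (SE 0.18, 95% interval -0.51 to 0.21). It was -0.02 without R26-WT replicate 2, -0.05 without replicate 1, -0.23 without replicate 3 and -0.27 without replicate 4, and -0.09 without R26-TIR1(F74G) replicate 6. R26-WT itself was divided, with replicates 1 and 2 above and replicates 3 and 4 below the middle of the other group. Rgs19 (GAIP), a membrane-bound member that acts on Gi (chromosome 2, 181330212 to 181335770), had 9150.5, 7876, 11601 and 9969 in R26-WT and 7534 to 10868 in R26-TIR1(F74G) with a median of 8892. The ranges overlapped over most of their width, with a log2 fold change of -0.09 (SE 0.14, 95% interval -0.38 to 0.19) that was 0.0075 without R26-WT replicate 3 and -0.18 without R26-WT replicate 2. Leaving out R26-TIR1(F74G) replicate 7 gave -0.05 and leaving out replicate 9 gave -0.15. With the trend removed, Rgs11 was at -0.20, Rgs16 at -0.25 and Rgs19 at -0.09.

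Levels of different genes were compared per length, as TPM in R26-WT (mean ± SD, n = 4). Rgs10 came first with 371.4 ± 57.3 TPM, followed by Rgs19 with 288.6 ± 25.7, Rgs1 with 240.6 ± 17.4 and Rgs14 with 153.6 ± 20.6. These 4 genes made up 32.5%, 25.3%, 21.1% and 13.5% of the summed RGS level. Rgs2 followed at 45.8 ± 7.94 TPM, then Rgs16 at 16.4 ± 4.75, Rgs3 at 14.3 ± 3.77, Rgs11 at 7.92 ± 2.66, Rgs12 at 2.84 ± 1.17 and Rgs18 at 0.12 ± 0.08. Neighbours whose ranges over the 4 libraries overlapped were Rgs10 and Rgs19, Rgs19 and Rgs1, Rgs16 and Rgs3, and Rgs3 and Rgs11. Rgs2 stood apart from both of its neighbours, Rgs14 above and Rgs16 below. The mean order was the same in R26-TIR1(F74G), where Rgs2 had 29.9 ± 2.34 TPM (SD, n = 6). The summed level of the 10 genes was 1038 to 1244 TPM in R26-WT and 978 to 1143 TPM in R26-TIR1(F74G), and the groups overlapped. The order depended on the length used. The counted length of Rgs1, 6947 bases, covers the whole gene as 1 block, and with the canonical transcript of 3841 bases Rgs1 ranked above Rgs19, while Rgs3 and Rgs11 ranked above Rgs16.

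**Figure D3:**
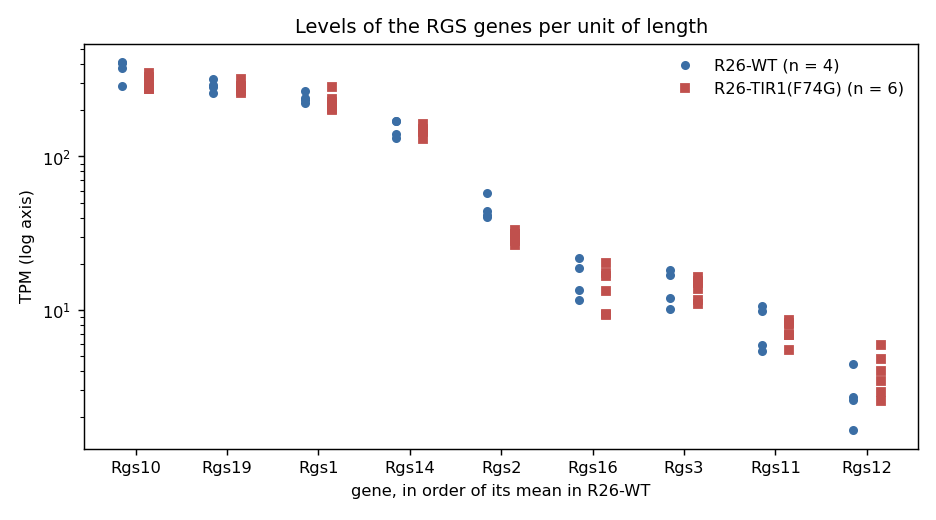
TPM of 9 RGS genes on a log axis in each R26-WT library (n = 4, blue circles) and each R26-TIR1(F74G) library (n = 6, red squares), in the order of their R26-WT mean (Rgs18, at most 0.21 TPM, is left out). Rgs10, Rgs19, Rgs1 and Rgs14 lie above 100 TPM, and Rgs2 lies between them and the other genes in both groups.

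Of the 14 other RGS genes and RGS-associated genes examined, 1 passed the count filter. Rgs9, an R7 gene of photoreceptors and striatum, had 70.1, 51.2, 52.9 and 52.4 normalized read pairs in R26-WT and 24.9 to 80.7 in R26-TIR1(F74G), with a log2 fold change of -0.22 (SE 0.33). Rgs4, Rgs5, Rgs7, Rgs13, Rgs17 and Rgs21 had no count in any library, and the remaining 7 had at most 13.

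4 of the 10 members lie on chromosome 1, and Rgs2, Rgs13 and Rgs1 are neighbours in a stretch otherwise poor in genes. Within 500 kb on either side of Rgs2 the files listed 13 genes, of which 9 passed the filter. Apart from Rgs2, 0 of 8 were called by DESeq2 or by edgeR, and 0 had an unadjusted p below 0.05 by DESeq2. Their log2 fold changes ran from -0.13 (Rgs1) to 0.42 (Gm29170). The tested genes with the nearest start sites were Gm29170, 227 kb away towards lower coordinates, and Rbm6-ps2, 219 kb away towards higher ones. Rgs13, between Rgs2 and Rgs1, had 0 counts.

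**Figure D4:**
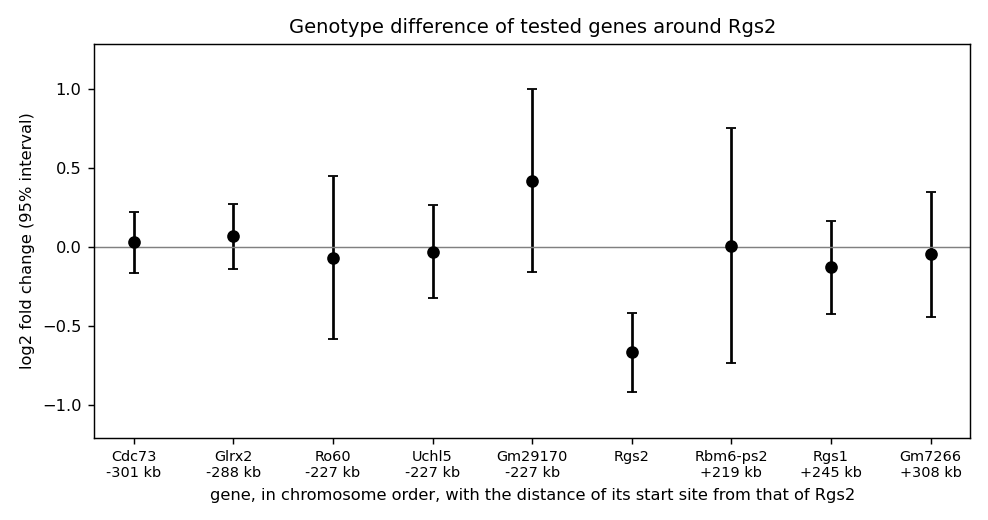
Log2 fold change with its 95% interval for the 9 tested genes within 500 kb of Rgs2, in chromosome order, with the distance of each start site from that of Rgs2. Rgs2 lies at -0.67 with an interval below 0, and the intervals of the other 8 genes hold 0.

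The genes that RGS proteins act with were examined as 6 lists from general knowledge. Of 148 listed genes 102 passed the filter, and DESeq2 called 5 higher and 0 lower in R26-TIR1(F74G), against 1.40% higher over all tested genes. edgeR called 0. Of the 5, 3 reached the filter only through the R26-TIR1(F74G) libraries and so had to differ (Ccr10, Lpar3 and Hrh4), which leaves Ccr2 and Gpsm2. Unadjusted p-values were below 0.05 for 18 genes by DESeq2 and 17 by edgeR, where all tested genes gave 6.86% and 6.21%. The DESeq2 count includes Ccr10, Lpar3 and Hrh4. The median log2 fold change was 0.08, beside 0.00063 over all tested genes.

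No G protein subunit passed the test. Of 10 tested alpha subunits 0 were called (median log2 fold change -0.03), with none at an unadjusted p below 0.05 by either tool. The 2 most abundant were the Gi subunits, the main substrates of Rgs1, Rgs10, Rgs14 and Rgs19: Gnai2 with 955.7 ± 31.1 TPM in R26-WT (SD, n = 4; log2 fold change -0.06, SE 0.10) and Gnai3 with 290 ± 74.6 TPM (-0.04, SE 0.13). Of 10 tested beta and gamma subunits 0 were called (median -0.08, none unadjusted by either tool), and the most abundant were Gnb1 (log2 fold change -0.10, SE 0.13) and Gnb2 (-0.09, SE 0.07).

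Among the receptors, DESeq2 called 4 of 47 tested higher and 0 lower, against 1.40% and 0.336% of all tested genes, and edgeR called 0 against 0.373%. At an unadjusted p below 0.05 there were 17 by DESeq2 and 16 by edgeR, where all tested genes gave 6.86% and 6.21%. Gene by gene, the 4 were low in R26-WT and uneven in R26-TIR1(F74G). Ccr2, the receptor for Ccl2, had 112.3, 168.2, 26.9 and 67.7 normalized read pairs in R26-WT and 106.0 to 1066 in R26-TIR1(F74G), which overlap (2.33 on the log2 scale, SE 0.67, adjusted p = 0.0346 by DESeq2). Ccr10, a skin and mucosal homing receptor, had 0 to 7.17 and 13.4 to 157.9. The lysophosphatidic acid receptor gene Lpar3 had 0 to 6.89 and 5.58 to 58.3. The histamine receptor gene Hrh4 had 0 to 10.8 and 13.4 to 222.8. These last 3 had means of 2.78, 1.72 and 3.10 in R26-WT and reached the count filter through R26-TIR1(F74G) alone, so their test is not given as support for a rise. The abundant receptors Ccr7 and S1pr1, which hold lymphocytes in lymph nodes and lead them out, had log2 fold changes of -0.03 (SE 0.12) and -0.10 (SE 0.11).

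Of 9 tested arrestins and other G protein regulators, Gpsm2 rose and no other was called. Gpsm2 (LGN) binds inactive Gi alpha through GoLoco motifs and orients the mitotic spindle. It had 497.7, 460.5, 462.3 and 355.2 normalized read pairs in R26-WT and 796.8, 801.1, 1115.7, 834.9, 740.8 and 579.0 in R26-TIR1(F74G). The groups did not overlap, as for 1.57% of all tested genes in this direction (log2 fold change 0.87, SE 0.18, DESeq2 adjusted p = 0.000368, edgeR adjusted p = 0.0606). The abundant Gpsm3 and Arrb2 had values of -0.02 (SE 0.10) and 0.04 (SE 0.08). Of 13 tested effectors 0 were called (median 0.32, none unadjusted by either tool), with Adcy7 at 0.18 (SE 0.19) and Pik3r5 at 0.37 (SE 0.28). Of 13 tested genes for other proteins with an RGS homology domain 0 were called (none unadjusted by either tool), with Arhgef1 at 0.14 (SE 0.23) and Grk6 at 0.18 (SE 0.16).

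Rgs2 is itself an early response gene, so genes induced by T cell receptor and other acute signals were set beside it. This list of 20 was all tested, 0 rose, 4 fell by DESeq2, 1 fell by edgeR (Jun), against 0.336% lower by DESeq2 and 0.373% in either direction by edgeR over all tested genes. In all, 16 of 20 were negative (median -0.31 on the log2 scale), where 49.9% of all tested genes were. At an unadjusted p below 0.05 there were 10 by DESeq2 and 9 by edgeR, where all tested genes gave 6.86% and 6.21%. The list did not move as one. Egr1 (0.06), Egr2 (0.16), Egr3 (0.12) and Nr4a1 (-0.06) lay near 0, Nr4a2 was at -0.51 and Nr4a3 at -0.31, and the highest value was 1.19. The 4 genes called lower were Jun (-0.71, SE 0.16, DESeq2 adjusted p = 0.00109), Junb (-0.70, SE 0.17, adjusted p = 0.00279), Ppp1r15a (-0.77, SE 0.19, adjusted p = 0.00592) and Fos (-0.88, SE 0.26, adjusted p = 0.0493). The summed TPM of the list was 6208 to 7823 in R26-WT and 4971 to 5830 in R26-TIR1(F74G), without overlap. Like Rgs2, all 4 were highest in R26-WT replicate 1, and 2 of the list were called without that library. The part of the list in the Rgs2 result was not tested.

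**Figure D5:**
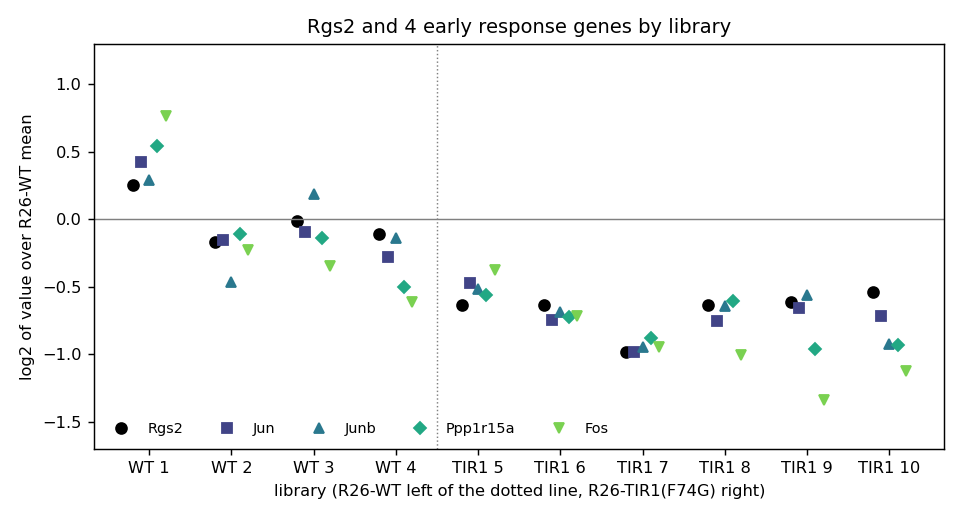
Rgs2 and the 4 early response genes called lower, by library, as log2 of the normalized value over the R26-WT mean of each gene (R26-WT left of the dotted line, R26-TIR1(F74G) right). All 5 genes are highest in R26-WT replicate 1, and each of the 6 R26-TIR1(F74G) libraries lies below the R26-WT mean for all 5.

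Other features also moved with genotype. Of 18 proliferation genes 15 rose by DESeq2 and 8 by edgeR, against 1.40% and, in either direction, 0.373% of all tested genes (median log2 fold change 1.41), with a summed TPM of 203 to 318 in R26-WT and 382 to 586 in R26-TIR1(F74G), and the part of this in the Rgs2 result was not tested. Of 6 B cell genes 3 were tested and 1, Ighm, fell (-0.54, DESeq2 adjusted p = 0.0137), against 0.336% lower over all tested genes. Ighm was not called by edgeR (adjusted p = 0.118). The summed TPM was 749 to 964 in R26-WT and 557 to 657 in R26-TIR1(F74G), and most of it was Ighm itself (mean 802 and 578). The other tested B cell genes pointed the same way without being called, Cd79a with 130 to 333 counts (-0.24) and Cd79b with 370 to 1341 (-0.33), while Ms4a1 and Pax5 had 0 to 4 counts in every library. The part of these genes in the Rgs2 result was not tested. Of 8 CD8 and NK cell genes 7 were tested, 3 with a positive and 4 with a negative value (median -0.06). Of these only Eomes was called, and it rose (1.47, DESeq2 adjusted p = 4.54e-08), against 1.40% higher over all tested genes. The list had summed TPM of 78.4 to 93.9 and 79.4 to 91.4, mostly from Cd8b1 (mean 66.3 and 59.4), with Ncr1 at 0. Summed TPM was 149 to 193 and 143 to 178 for myeloid genes (Cd14 and S100a9 at 0), 191 to 206 and 186 to 230 for plasma cell genes (Tnfrsf17 at 0, and Mzb1 at 0 with 57.2% of its exon bases shared with another gene), 0.57 to 1.59 and 0.43 to 1.6 for platelet genes, and 0.53 to 0.99 and 0.24 to 0.95 for erythroid genes, with 0 called in these 4 lists by either tool and 0 at an unadjusted p below 0.05. Most of the myeloid sum came from Cst3 (1535 to 4496 counts) and most of the plasma cell sum from Xbp1 (4950 to 12852 counts).

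Likeness to Rgs2 was measured over the 10 libraries after the mean of each group was taken out, so that it reflects variation within groups and not the genotype difference. Among 12617 genes the 5 with the smallest root mean square difference of scaled log2 values were Vma21 (0.396), Ubap1 (0.398), Septin7 (0.472), Camk2n1 (0.480) and D3Ertd751e (0.484), where the median gene was at 1.39. Like Rgs2, each of the 5 was highest among R26-WT libraries in replicate 1 and lowest among R26-TIR1(F74G) libraries in replicate 7. Genes picked for their likeness to the Rgs2 profile can be counted on to share its extreme libraries, so nothing is read from this. The nearest RGS relative was Rgs14 (0.963, rank 611), and the farthest was Rgs12 (1.71). The early response genes were scattered, from Jun at rank 12 (0.588) through Junb (rank 202), Ppp1r15a (rank 485) and Fos (rank 1174) to Fosl2 at rank 11263 (1.70). Points share a library, its depth and its length trait, so this is a description only.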

How the data were processed

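Raw read-pair counts per gene were deposited by the authors, 1 file per library, without normalization. Per the file headers they were made with featureCounts 2.1.1 against GENCODE M30 (primary pairs, both mates mapped, mapping quality of at least 30, no strand option), so overlapping and antisense genes cannot be separated. The submitters' processing notes name Bowtie2, featureCounts, DESeq2 and mm39, and the study's methods name STAR. Library names carry separate mouse numbers, and no pooling is stated. cDNA was amplified from small RNA amounts without molecular identifiers, so counting error is a lower limit. The 10 members, the gene lists and the naming rule were chosen with earlier results of these data known.

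DESeq2 1.42.0 (R 4.3.3) was fitted to the 16363 genes whose mean count reached 10, genotype as the only term, with a two-sided Wald test and Benjamini-Hochberg adjustment over all of them (threshold 0.05). Intervals are the estimate with its 95% normal interval. edgeR 4.0.16 (quasi-likelihood) was the alternative, with TMM factors, other count filters, each library left out, and a spline of each library on gene length and GC content. TPM used the length column of the files. The canonical transcript length was added after the data were seen. The 21 within-group library pairs differed by at least 9.45 times the chi-square expected of sampling noise. Scripts were tested on simulated data. Some single marker genes are not reported here. Named besides the members were called genes of the 6 pathway lists, the 2 most abundant genes of each, Rgs9, and the 5 genes nearest to Rgs2. Early response genes, neighbours of Rgs2 and marker genes named outside that rule were chosen after their values were seen. Promoters came from RefSeq (GRCm38.p6) and were placed on GRCm39 by an exact match.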

Additional observations from a re-analysis of the deposited data

Results flagged for a closer look

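Values that stood far from the rest of their group were looked for in 54 groups of libraries, where about 2.7 are expected by chance, and 7 were found. Rgs1 in R26-WT replicate 2 was the lowest of its group at 21356 normalized read pairs, with the other 3 libraries at 25967 to 26299. Rgs2 in R26-TIR1(F74G) replicate 7 was the lowest of its group at 1249, with the others at 1586 to 1700, and without that library its log2 fold change was -0.61 (SE 0.11). Rgs9 was highest in R26-WT replicate 1 at 70.1, with the others at 51.2 to 52.9. Among pathway genes, Lpar3 was at 6.89 in R26-WT replicate 2 and at 0 in the other 3 libraries, and Hrh4 was at 10.8 in the same library and at 0 to 1.59 in the others. Hrh4 was also high in R26-TIR1(F74G) replicate 9 at 222.8, with the others at 13.4 to 77.8. Adcy7 was highest in R26-TIR1(F74G) replicate 7 at 12704, with the others at 7021 to 8739.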

How the results depend on the processing

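No paired analysis was possible because no replicate number occurs in both groups. Each tested member was recomputed under 15 alternatives. Rgs2, which was chosen from this contrast, ran from -0.72 to -0.57 on the log2 scale. The sign changed for Rgs3 and Rgs19 only, each in 1 leave-one-out fit and within 0.01 of 0. Over all genes, 284 were called by DESeq2, 61 by edgeR, and 187 to 346 with 1 library left out (lowest without R26-WT replicate 4). edgeR called 0 receptors, 0 arrestins and other regulators, 8 proliferation genes and 1 early response gene. Receptors called were 1 at a mean count of at least 50, 7 with the trend removed and 2 to 5 with 1 library left out (2 without R26-WT replicate 1, R26-WT replicate 3 or R26-TIR1(F74G) replicate 7). Early response genes called were 2 to 5, and effectors 0 to 1, with 1 library left out, the 2 and the 1 both without R26-WT replicate 1. Of 9 neighbouring pairs in the order of levels, 6 kept their order as CPM and 7 with canonical lengths. Without centring, 0 of the 5 nearest genes to Rgs2 were shared (Prxl2c, Jun, H2aw, Cd55 and Phlda1 came first). The cause was not tested in any of these, except that CPM and TPM differ in length alone. With 4 and 6 libraries, intervals of the weaker members span both 0 and sizeable changes.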
